A study of Mus musculus with 6 samples.

Results

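Matrix metalloproteinases (MMPs) and their tissue inhibitors (TIMPs) were examined in PDPN+PDGFRα+ stromal cells sorted from mouse melanomas. The 10 genes, 7 MMPs (Mmp2, Mmp3, Mmp9, Mmp11, Mmp13, Mmp14 and Mmp19) and 3 TIMPs (Timp1, Timp2 and Timp3), were taken by gene name from a table of 53801 genes, with earlier results of these data known. MO5 tumors, a B16 melanoma line carrying the ovalbumin gene, were grown under the skin of young adult C57Bl/6 mice. The Ctrl group (labelled DTR-, n = 3 libraries) came from non-transgenic littermates. The DTR group (labelled DTR+, n = 3 libraries) came from ADAM12-DTR mice, in which a bacterial artificial chromosome places the diphtheria toxin receptor under the Adam12 promoter, so that toxin kills cells with an active promoter. Mice of both genotypes received diphtheria toxin, so the toxin itself was common to the groups. Cells bearing CD45 or CD31, the surface markers of blood and endothelial cells, were gated out before the sort, and whether each library came from 1 mouse or from pooled mice is not given in the sources used here. The comparison asked which of these genes differed in the sorted stromal cells of toxin-treated mice with and without the receptor.

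MMPs are zinc-dependent endopeptidases that together cleave most components of the extracellular matrix, and many also cut growth factors, cytokines and cell surface receptors. They are made as latent proenzymes in which a cysteine of the prodomain occupies the catalytic zinc, and they become active when that contact is broken. TIMPs bind active MMPs and block the catalytic site, and tumor fibroblasts are a main source of both families in many solid tumors.

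Across the 10 genes, 0 members passed edgeR's quasi-likelihood test after adjustment by the Benjamini-Hochberg method, as did 0% of the 15133 genes tested. Mmp9 was the only member whose Ctrl and DTR libraries did not overlap, at 3.92 times more in Ctrl, where 14.5% of all genes did not overlap in either direction and 8.18% did not with DTR lower. Mmp13 had the widest gap, 8.33 times more in Ctrl by the means, with 1 Ctrl library carrying most of it. Timp3 had the largest gap in the other direction, 2.33 times more in DTR, and Mmp14, the most abundant MMP transcript per kb of exons in Ctrl, had close means in both groups. DESeq2 called 2 members, Mmp9 and Mmp13, both lower in DTR, against 0.152% of 20360 genes in either direction and 0.0688% lower. The study had already named both genes as lower in DTR by DESeq2 on these data. The 2 calls therefore repeat its result and are not separate support.

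Library totals ran from 22339635 to 34271929 counts, so that 3 counts, the floor used here, stood for 0.0875 to 0.134 counts per 1000000 counts of the raw total. All other values per 1000000 counts (CPM) were scaled with TMM factors, and the p-values measure only the spread between these libraries. Adam12 is the gene whose promoter drives the receptor. It measured 216, 181 and 175 CPM in Ctrl 1, 2 and 3 and 165, 151 and 112 CPM in DTR 1, 2 and 3. Adam12 was lower in DTR without overlap, as were 8.18% of all genes tested, but was not called. Its log2 fold change was -0.42 (SE 0.15, interval -0.77 to -0.06, edgeR unadjusted p = 0.0265, adjusted p = 0.602). How many ADAM12+ cells remained was not tested here, and the study shows the efficiency of its depletion separately. The sorting markers Pdgfra and Pdpn were present in every library and overlapped between the groups, with log2 fold changes of 0.29 and 0.37. The 9 fibroblast markers summed to 13622, 5233 and 5166 CPM in Ctrl and 10852, 5574 and 14115 CPM in DTR, with Ctrl 1, DTR 1 and DTR 3 above the other libraries, and all 9 had log2 fold changes above 0 with none called. The 7 melanoma markers summed to between 15602 and 18132 CPM in Ctrl and between 14553 and 17248 CPM in DTR. In log2 fold change 5 of 7 were below 0, and Sox10 was lower in DTR without overlap, as were 8.18% of all genes tested. Tumor cell RNA was thus present in each sorted fraction, and its part in the values below was not tested. In such bulk samples, fewer cells of a type and less RNA per cell cannot be told apart.

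All 7 MMP genes code for the catalytic zinc site, a stretch that lies within 1 exon of each gene and holds the 3 histidine codons, in capitals, whose side chains grip the zinc. These stretches are shown because they are what makes the 7 genes 1 family. They were read from the GENCODE transcripts of GRCm38, the build to which the reads were mapped, and none of the 3 TIMP coding sequences held one.
Mmp2 zinc site (chr8:92839279-92839311, + strand): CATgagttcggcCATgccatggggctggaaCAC
Mmp9 zinc site (chr2:164951133-164951165, + strand): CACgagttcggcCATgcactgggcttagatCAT
Mmp3 zinc site (chr9:7449775-7449807, + strand): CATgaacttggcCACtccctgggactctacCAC
Mmp11 zinc site (chr10:75926931-75926963, - strand): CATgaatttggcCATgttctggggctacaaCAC
Mmp13 zinc site (chr9:7276573-7276605, + strand): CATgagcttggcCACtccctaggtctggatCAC
Mmp14 zinc site (chr14:54437627-54437659, + strand): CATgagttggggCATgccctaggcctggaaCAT
Mmp19 zinc site (chr10:128795673-128795705, + strand): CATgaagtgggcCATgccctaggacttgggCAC
The stretches of 33 bases lay in exon 8 of Mmp2 and Mmp9 and in exon 5 of the other MMP genes. Pairs of genes shared between 20 (Mmp3 and Mmp9) and 27 of the 33 bases (Mmp3 and Mmp13, and also Mmp2 and Mmp14). Mmp2 and Mmp9 carry fibronectin type II repeats within the catalytic domain. Their coding distance from the prodomain cysteine to the zinc site was 303 codons, against 128 codons in Mmp3 and Mmp13 and 148 codons in Mmp14. The cysteine motif searched for had no match in Mmp11 and Mmp19, so no distance is given for them. A run of 4 basic codons of the kind cut by furin, CGGAGGAAGCGC, followed the cysteine in Mmp14 (chr14:54436202-54436213, + strand, exon 3). Mmp11 and Mmp19, without a match to the cysteine motif, were not searched for such a run. Of the 50-base words in the annotated exons, Mmp3 shared 8.39% with other genes. Of its 147 shared words, 140 were found in the nearby gene Mmp10, so that reads of these stretches are uncertain. Mmp14 and Timp3 shared 0.648% and 0.556%, and the other members shared none. Genes on the opposite strand overlap Mmp11 (Chchd10), Mmp19 (Gm47093 and Tmem198b), Timp1 (Syn1) and Timp3 (Syn3), and reads had been counted by strand.

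The gelatinases Mmp2 and Mmp9 cleave denatured collagen and the type IV collagen of basement membranes. Mmp9 (ENSMUSG00000017737, chr2:164940780-164955850, + strand) measured 9.27, 3.14 and 4.67 CPM in Ctrl 1, 2 and 3 and 1.48, 1.64 and 1.23 CPM in DTR 1, 2 and 3, from raw counts of 227, 75 and 133 against 51, 51 and 28. Every DTR library lay below every Ctrl library, and Ctrl 1 was the highest of the 6. Group means were 5.70 ± 3.19 CPM in Ctrl and 1.45 ± 0.205 CPM in DTR (mean ± s.d., n = 3 each). The log2 fold change was -1.96 (SE 0.43, 95% confidence interval -2.96 to -0.96), with an unadjusted p of 0.00196 and an adjusted p of 0.602 by edgeR's quasi-likelihood test. A two-sided exact permutation test over the 6 libraries gave its smallest possible p, 0.1. DESeq2's Wald test gave an adjusted p of 0.0115 for Mmp9. Leaving out Ctrl 1, the library with the most Mmp9, brought the log2 fold change to -1.42 and the DESeq2 adjusted p to 0.116. The DESeq2 call was also lost without Ctrl 3 (adjusted p = 0.0721) and without DTR 3 (adjusted p = 0.131), and DESeq2 gave no adjusted p without DTR 1.

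Neutrophils store MMP9 protein in their granules, so the values of neutrophil markers stand beside that of Mmp9. Of 11 neutrophil markers 1 passed the low-count filter, Ly6g and Camp had no count in any library, and the summed level of the list ran from 1.69 to 7.88 CPM in Ctrl and from 1.68 to 3.29 CPM in DTR. Ctrl 1, with the most Mmp9, also had the highest neutrophil sum. Macrophages also express Mmp9, and the 11 macrophage markers summed to between 128 and 213 CPM in Ctrl and between 146 and 157 CPM in DTR. Keratinocytes are another source, and their markers summed to between 0.457 and 0.939 CPM in Ctrl and between 0.233 and 1.38 CPM in DTR. The groups overlapped in all 3 marker sums, but single markers were lower in DTR without overlap, as were 8.18% of all genes tested. These were Mrc1 of macrophages, at 26.3, 22.3 and 20.2 CPM in Ctrl and 18.0, 17.0 and 11.4 CPM in DTR, and S100a9 of neutrophils, at 2.41, 0.251 and 0.422 CPM in Ctrl and 0.175, 0.161 and 0 CPM in DTR, which did not pass the low-count filter. Retnlg of neutrophils went the other way at counts of 1, 0 and 0 in Ctrl and 8, 8 and 6 in DTR. The part of these cells in the Mmp9 values was not tested.

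Mmp2 (ENSMUSG00000031740, chr8:92827291-92853420, + strand) averaged 48.5 CPM per kb of exons over the 6 libraries, against 1.01 for Mmp9. Mmp2 measured 154, 66.0 and 84.7 CPM in Ctrl 1, 2 and 3 and 158, 99.6 and 418 CPM in DTR 1, 2 and 3. DTR 3 stood far above the other 5 libraries, and DTR 2 lay below Ctrl 1, so the groups overlapped. This gave a log2 fold change of 1.15 (SE 0.52, interval -0.06 to 2.35, edgeR adjusted p = 0.630). Without DTR 3 it was 0.34, and without Ctrl 1 it was 1.58. The same DTR 3 library had the highest summed fibroblast markers.

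**Figure D1:**
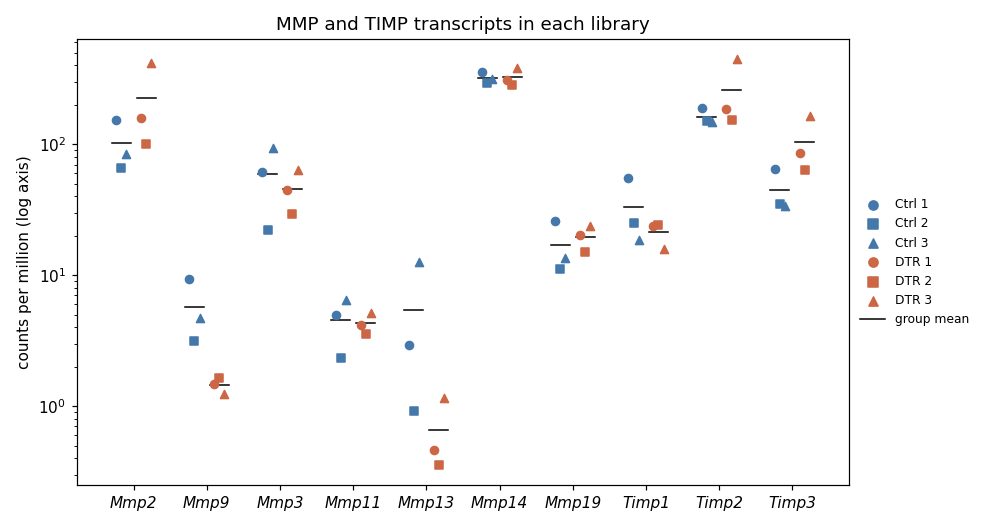
CPM (log axis) of each MMP and TIMP gene, 1 point per library, with Ctrl in blue and DTR in orange and black lines at the group means. Mmp9 is the only gene whose Ctrl and DTR points do not overlap, and DTR 3 (orange triangle) is the highest library for Mmp2, Mmp14, Timp2 and Timp3.

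Mmp13, Mmp3 and Mmp11 are secreted enzymes with different substrates. Mmp13 is a collagenase that opens the fibrillar collagen triple helix, Mmp3 is a stromelysin that cleaves proteoglycans and laminin and activates other proMMPs, and Mmp11 is a stromelysin-like enzyme of stromal cells that leaves the Golgi already active. Mmp13 and Mmp3 lie in a cluster of 10 Mmp genes on chromosome 9, between 7272514 (the start of Mmp13) and 7699585 (the end of Mmp7). The 250 bases before the RefSeq start site of each are printed because both hold an AP-1 type word, TGANTCA, in capitals, the element that inflammatory cytokines act through at several MMP genes.
Mmp3 promoter (chr9:7445572-7445821, + strand): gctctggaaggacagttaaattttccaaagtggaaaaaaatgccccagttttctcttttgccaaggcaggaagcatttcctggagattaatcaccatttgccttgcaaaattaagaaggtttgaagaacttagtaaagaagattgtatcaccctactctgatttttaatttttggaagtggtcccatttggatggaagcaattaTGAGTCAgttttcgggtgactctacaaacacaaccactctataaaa
Mmp13 promoter (chr9:7272264-7272513, + strand): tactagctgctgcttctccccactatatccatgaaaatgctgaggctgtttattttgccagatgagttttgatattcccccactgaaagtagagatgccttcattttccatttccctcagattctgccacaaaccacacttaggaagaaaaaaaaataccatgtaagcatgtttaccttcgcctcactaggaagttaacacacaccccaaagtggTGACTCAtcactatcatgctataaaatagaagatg
The word began 46 bases before the start in Mmp3 and 35 bases before it in Mmp13. It reads the same on both strands, and it was present in 6.87% of 27025 RefSeq mouse promoters of the same length (GRCm38.p6). It was absent from the same window of Mmp11, Mmp14, Timp1, Timp2 and Timp3, and the RefSeq table had no entry for Mmp2, Mmp9 and Mmp19. An ETS type word, AGGAAG, was found on either strand in Mmp3, Mmp13, Mmp14, Timp1 and Timp3, against 29.2% of all promoters, and a hypoxia type core, ACGTG, in Mmp14 and Timp1, against 16.6%. Neither word overlapped the AP-1 type word in the printed windows, and a match of letters is not evidence of a bound factor.

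Mmp13 (ENSMUSG00000050578, chr9:7272514-7283331, + strand) measured 2.94, 0.921 and 12.5 CPM in Ctrl 1, 2 and 3 and 0.465, 0.354 and 1.15 CPM in DTR 1, 2 and 3, from counts of 72, 22 and 356 against 16, 11 and 26. Ctrl 3 stood far above the other 5 libraries, and DTR 3 lay above Ctrl 2, so the groups overlapped by that 1 pair. The log2 fold change of -3.09 was the largest among the members (SE 0.94, interval -5.26 to -0.92), with an unadjusted p of 0.0112 and an adjusted p of 0.602 by edgeR's quasi-likelihood test. DESeq2 gave an adjusted p of 0.0260. Without Ctrl 3 the log2 fold change was -1.57 in edgeR and -1.56 in DESeq2, where the adjusted p became 0.802. The DESeq2 call was also lost without DTR 2 (adjusted p = 0.178) and without DTR 3 (adjusted p = 0.411), and without DTR 1 DESeq2 gave no adjusted p. The 5 osteochondral markers, listed because Mmp13 is a gene of cartilage and bone cells, summed to between 1.51 and 2.14 CPM in Ctrl and between 0.573 and 1.45 CPM in DTR, lower in DTR without overlap. Col2a1, the 1 marker tested, made up most of these sums, at 1.23, 1.55 and 1.93 CPM in Ctrl and 1.05, 1.35 and 0.441 CPM in DTR, and overlapped. Ibsp had no count in any library, and the part of such cells in the Mmp13 values was not tested.

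Mmp3 (ENSMUSG00000043613, chr9:7445822-7455975, + strand) shares the type of promoter word and the gene cluster with Mmp13. It measured 61.2, 22.2 and 93.7 CPM in Ctrl 1, 2 and 3 and 44.7, 29.5 and 63.2 CPM in DTR 1, 2 and 3. The 3 DTR libraries lay inside the range of Ctrl, whose own libraries spanned from the lowest to the highest of the 6. With a log2 fold change of -0.37 (SE 0.47, edgeR adjusted p = 0.847), Mmp3 was not called, and the estimate was 0.14 without Ctrl 3 and -0.76 without Ctrl 2, so its sign depended on 1 library. Ctrl 3 was the highest library for Mmp3 as for Mmp13. Mmp11 (ENSMUSG00000000901, chr10:75923222-75936496, - strand) measured 4.98, 2.35 and 6.43 CPM in Ctrl and 4.13, 3.57 and 5.16 CPM in DTR, again with DTR inside the Ctrl range. Its log2 fold change was -0.10 (SE 0.38, edgeR adjusted p = 0.949), and it turned to 0.23 without Ctrl 3.

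Mmp14, or MT1-MMP, is anchored in the cell membrane, degrades fibrillar collagen around the cell and activates proMMP2 in a complex that includes Timp2. Mmp14 (ENSMUSG00000000957, chr14:54431612-54445364, + strand) measured 356, 294 and 312 CPM in Ctrl 1, 2 and 3 and 308, 283 and 380 CPM in DTR 1, 2 and 3. The groups interleaved, with means of 321 ± 31.5 CPM and 324 ± 50.6 CPM (mean ± s.d., n = 3 each). A log2 fold change of 0.01 was estimated (SE 0.13, edgeR adjusted p = 0.983), and its interval of -0.29 to 0.31 was the narrowest among the members. The estimate lay close to 0 and its sign turned under 8 of 22 alternative settings. Mmp19 (ENSMUSG00000025355, chr10:128790910-128800824, + strand), a secreted MMP of basement membrane substrates, measured 26.1, 11.2 and 13.6 CPM in Ctrl and 20.4, 14.98 and 23.6 CPM in DTR. The ranges overlapped, with a log2 fold change of 0.21 (SE 0.32, edgeR adjusted p = 0.869) that was 0.66 without Ctrl 1 and -0.013 without Ctrl 2.

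The 3 inhibitors did not share a direction. Timp3 binds to the extracellular matrix and also blocks ADAM family proteases, and it was the member with the largest gap toward DTR. Timp3 (ENSMUSG00000020044, chr10:86300372-86349506, + strand) measured 64.8, 34.8 and 33.8 CPM in Ctrl 1, 2 and 3 and 85.0, 63.2 and 163 CPM in DTR 1, 2 and 3. The groups overlapped by 1 pair, since DTR 2 lay just below Ctrl 1, and DTR 3 was the highest. Group means were 44.5 ± 17.6 CPM in Ctrl and 104 ± 52.5 CPM in DTR (mean ± s.d., n = 3 each). The log2 fold change was 1.22 (SE 0.38, interval 0.34 to 2.10), with an unadjusted p of 0.0126 and an adjusted p of 0.602 by edgeR's quasi-likelihood test, and DESeq2 gave an adjusted p of 0.569. Without DTR 3 the log2 fold change was 0.74 and without Ctrl 1 it was 1.59. DTR 3, the library with the most Timp3, Timp2 and Mmp2, also had the highest sum of the 5 endothelial markers, which ran from 11.6 to 18.9 CPM in Ctrl and from 13.2 to 78.9 CPM in DTR. Of the 78.9 CPM, Tek made up 62.9 and Kdr 12.0, whereas Cdh5 and Emcn had no count in DTR 3 and Pecam1, at 4.01 CPM, was below its level in DTR 1 (8.03 CPM). The 5 mural cell markers summed to between 16.5 and 37.0 CPM in Ctrl and between 12.2 and 15.6 CPM in DTR, lower in DTR without overlap. Cspg4 alone among the 4 tested markers was apart between the groups, where 8.18% of all genes were apart with DTR lower. No such percent was computed for marker sums. The part of either cell type in the Timp3 values was not tested.

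Timp2 inhibits most MMPs and, at the cell surface, serves as the bridge between Mmp14 and proMMP2. Timp2 (ENSMUSG00000017466, chr11:118301069-118355740, - strand) measured 189, 150 and 149 CPM in Ctrl and 186, 153 and 447 CPM in DTR. Apart from DTR 3, all libraries fell within the Ctrl range. The log2 fold change of 0.69 (SE 0.37, edgeR adjusted p = 0.655) was 0.06 without DTR 3. Timp2 overlaps Cep295nl on the same strand, so reads in the overlap are uncertain. Timp1, the soluble inhibitor that binds proMMP9, showed the other direction. Timp1 (ENSMUSG00000001131, chrX:20870166-20874735, + strand) measured 55.0, 25.2 and 18.6 CPM in Ctrl and 23.8, 24.3 and 15.8 CPM in DTR. Ctrl 1 stood above the other 5 libraries, which overlapped. Its log2 fold change was -0.62 (SE 0.38, edgeR adjusted p = 0.678), and without Ctrl 1 it was -0.04.

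**Figure D2:**
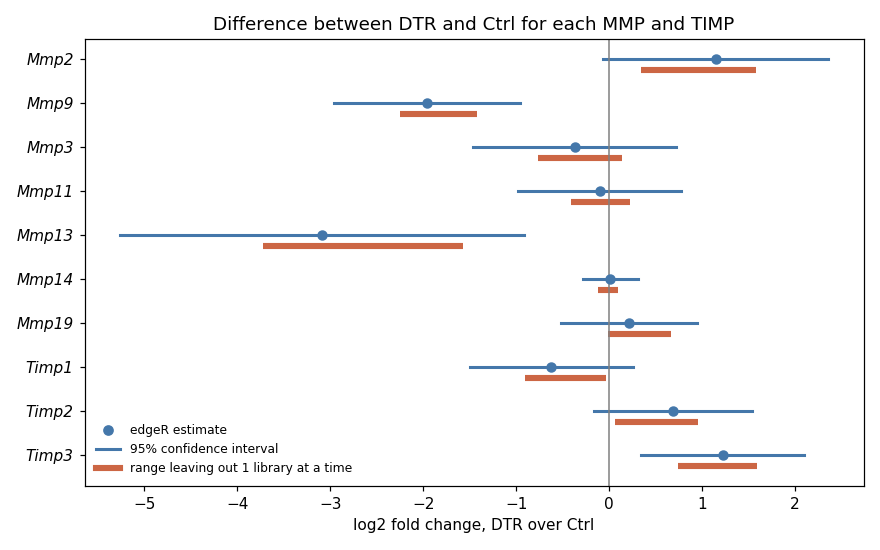
Log2 fold change of DTR over Ctrl for each gene by edgeR (point) with its 95% confidence interval (thin line) and the range obtained when 1 of the 6 libraries was left out at a time (orange bar). The intervals of Mmp9 and Mmp13 lie below 0 and that of Timp3 above 0, and the orange bars of Mmp3, Mmp11, Mmp14 and Mmp19 cross 0.

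All 10 members passed the low-count filter, and 0 were called by edgeR's quasi-likelihood test at an adjusted p of 0.05. At an unadjusted p of 0.05, 2 members were lower in DTR (Mmp9 and Mmp13) and 1 higher (Timp3), 3 of 10 in all, against 7.92% of all genes in either direction, 4.11% lower and 3.81% higher. Mmp9 and Mmp13 had been named as lower by the study, so their count is not separate support. The groups did not overlap for 1 member lower in DTR and for 0 members higher in DTR, the latter against 6.32% of all genes. The median log2 fold change of the members was -0.04, with 5 below and 5 above 0, and 50.4% of all genes were below 0.

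Levels were compared between genes as CPM per kb of annotated exons. Averaged over the 6 libraries, Timp2 (54.5 CPM per kb), Mmp14 (54.1) and Mmp2 (48.5) led, followed by Timp1 (30.5) and Mmp3 (29.1), then Timp3 (9.10) and Mmp19 (5.18), and last Mmp11 (1.60), Mmp13 (1.14) and Mmp9 (1.01). Neighbors in this order overlapped over the libraries, except Mmp19 and Mmp11, whose ranges were apart. The lead of Timp2 rested on DTR 3, where it measured 115 CPM per kb against 63.8 for Mmp14, since Mmp14 was above Timp2 in each of the other 5 libraries. In Ctrl the means per kb were 53.8 for Mmp14, 41.7 for Timp2, 37.1 for Timp1, 32.8 for Mmp3 and 30.1 for Mmp2. In DTR they were 67.2 for Timp2, 66.8 for Mmp2 and 54.3 for Mmp14, but Mmp14 was the highest of the 3 in DTR 1 (51.6) and in DTR 2 (47.5). Mmp2 measured 124 CPM per kb in DTR 3 against 19.6 to 46.8 in the other libraries.

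The balance between enzymes and inhibitors was described within each library, where scaling between libraries drops out. The summed MMP level per kb was 1.29, 1.22 and 2.24 times the summed TIMP level in Ctrl 1, 2 and 3 and 1.54, 1.34 and 1.52 times in DTR 1, 2 and 3, with the DTR libraries inside the Ctrl range. By counts without length the same ratio was 1.99, 1.90 and 2.62 in Ctrl and 1.82, 1.80 and 1.43 in DTR, lower in DTR without overlap, so the reading of the balance depended on the length correction. The ratio of Mmp9 to Timp1 per kb was 0.0423, 0.0313 and 0.0630 in Ctrl and 0.0156, 0.0169 and 0.0196 in DTR, lower in DTR without overlap. It was the only 1 of 4 such ratios whose groups were apart. The 4 ratios were not among the planned results, and Mmp9 was already apart by CPM on its own. The means per kb of the overlapping ratios in Ctrl and DTR were 1.28 and 1.195 for the sum of Mmp3, Mmp9 and Mmp13 to Timp1, 0.703 and 0.939 for Mmp2 to Timp2 and 1.97 and 1.07 for Mmp14 to Mmp2. The share of each gene in the summed level of the 10 genes per kb overlapped between the groups for 6 (Mmp3, Mmp11, Mmp14, Mmp19, Timp1 and Timp2) and was apart for 4. The shares of a library add up to the whole, so they are not independent. No percent of all genes apart was computed on this scale, so whether 4 of 10 is unusual is not known. Timp3 held 2.94, 2.71 and 2.02% in Ctrl and 4.83, 4.46 and 5.21% in DTR. Its share was higher in every DTR library. Mmp2 held 16.9, 12.4 and 12.3% in Ctrl and 21.7, 17.0 and 32.2% in DTR, apart per kb but overlapping by counts. Mmp9 held 0.725 ± 0.215% in Ctrl and 0.184 ± 0.0885% in DTR (mean ± s.d., n = 3 each), lower in every DTR library. Mmp13 held 0.407, 0.218 and 2.28% in Ctrl and 0.0806, 0.0762 and 0.112% in DTR, also lower in every DTR library, with the Ctrl mean carried by Ctrl 3.

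**Figure D3:**
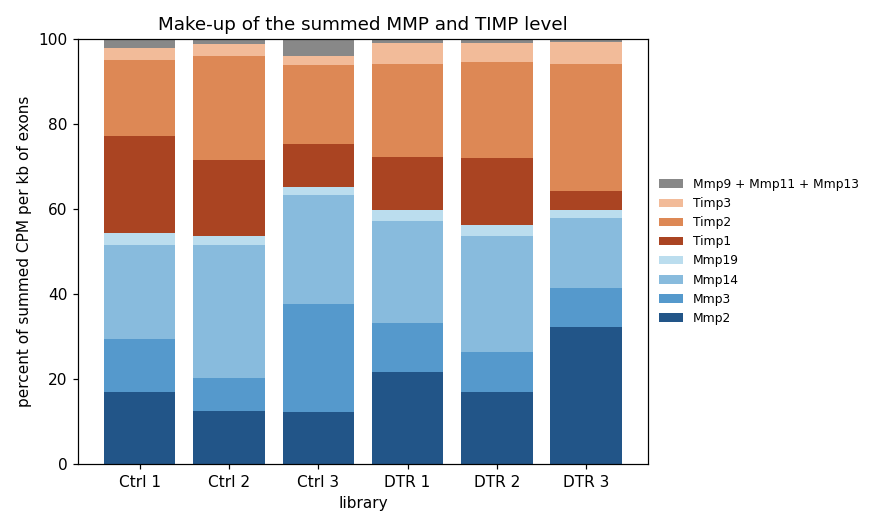
Percent of the summed CPM per kb of exons of the 10 genes held by each gene, 1 bar per library, with MMPs in blues, TIMPs in oranges and the 3 least abundant MMPs together in grey. Timp3 takes 2.02 to 2.94% in Ctrl and 4.46 to 5.21% in DTR, and the grey share is largest in Ctrl 3.

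Because the fibroblast marker sum differed 2.73-fold between libraries, the counts of each member were also set against 1000 counts of the 9 fibroblast markers, a scale chosen after seeing the data. Most of the sum came from Col1a1, Col1a2 and Col3a1, at 4289, 2540 and 6258 of 13622 CPM in Ctrl 1. In DTR 3 they were at 3023, 2433 and 7600 of 14115 CPM. The scale is thus mainly one of collagen transcripts, to which the other markers add little. On it Mmp9 measured 0.681, 0.600 and 0.905 in Ctrl and 0.137, 0.295 and 0.0875 in DTR, again without overlap and lower in DTR (log2 ratio of the means -2.07). Mmp13 measured 0.216, 0.176 and 2.42 in Ctrl and 0.0429, 0.0636 and 0.0812 in DTR. The pair of libraries that overlapped by CPM was now apart, and the log2 ratio was -3.91. Timp3 measured 4.76, 6.66 and 6.55 in Ctrl and 7.84, 11.3 and 11.6 in DTR, which also put the groups apart, with a log2 ratio of 0.77. The other 7 members overlapped. Their log2 ratios were 0.62 for Mmp2, 0.094 for Timp2, -0.95 for Mmp3, -0.57 for Mmp11, -0.43 for Mmp14, -0.10 for Mmp19 and -0.70 for Timp1, so that the values of Mmp2 and Timp2 lay nearer to 0 than by CPM and those of Mmp14 and Mmp19 turned sign. On this scale 1.98% of all tested genes did not overlap (0.932% lower and 1.04% higher in DTR), against 3 of the 10 members. The members and this scale were both chosen with results of these data known, so the contrast is a description only. With the marker sum as a covariate in edgeR, also added after seeing the data, the log2 fold changes were -2.01 for Mmp9, -3.00 for Mmp13 and 0.88 for Timp3, and none was called (adjusted p = 0.588, 0.589 and 0.588). The same fit gave 0.59 for Mmp2 and 0.34 for Timp2.

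**Figure D4:**
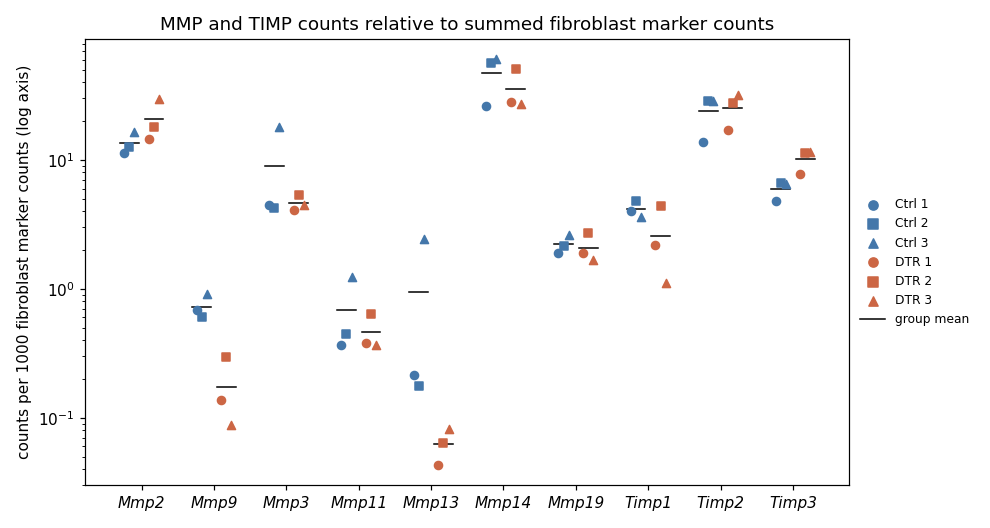
Counts of each gene per 1000 summed counts of 9 fibroblast markers (log axis), 1 point per library, with black lines at the group means. Ctrl and DTR are apart for Mmp9 and Mmp13 (DTR lower) and for Timp3 (DTR higher), and the other 7 genes overlap.

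The rest of the MMP and TIMP family was mostly at low levels. Of 17 other family genes 9 passed the low-count filter and 0 were called by edgeR or DESeq2. By unadjusted p below 0.05, 1 was lower in DTR, where 4.11% of all genes were, and the groups overlapped for all 9, where 14.5% of all genes were apart. Mmp10, a stromelysin and the close copy of Mmp3, had the lowest log2 fold change, -1.92 (SE 0.81, edgeR adjusted p = 0.616), at 2.98, 0.838 and 2.57 CPM in Ctrl and 0.116, 1.13 and 0.441 CPM in DTR. Mmp16, a membrane-type MMP, had the highest at 1.197 (SE 1.28, edgeR adjusted p = 0.818), and without DTR 2, its highest library at 2.96 CPM, it was -1.46. Mmp1a had no count in any library.

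Of 20 genes that activate, dock, inhibit or clear MMPs, 17 were tested, with a median log2 fold change of 0.06, 6 below and 11 above 0. At an unadjusted p of 0.05, 2 were lower and 1 higher in DTR, where 4.11% and 3.81% of all genes were, and edgeR called 0 after adjustment. The groups did not overlap for 2, both lower in DTR, where 8.18% of all genes were apart in that direction. DESeq2 called 1, against 0.152% of all genes, and this was Lcn2, the secreted lipocalin that binds Mmp9 and protects it from breakdown. The study had already named Lcn2 as lower in DTR by DESeq2 on these data. Lcn2 measured 3.68, 3.31 and 2.95 CPM in Ctrl 1, 2 and 3 and 0.233, 0.161 and 0.794 CPM in DTR 1, 2 and 3, lower in DTR without overlap. Its log2 fold change was -3.11 (SE 0.60, edgeR adjusted p = 0.602, DESeq2 adjusted p = 6.6e-04), between -4.04 and -2.73 when 1 library was left out. Lcn2, like Mmp9, is also a product of neutrophils, whose marker values are given beside Mmp9. The second gene without overlap, Bsg, the surface glycoprotein known as an inducer of MMPs, was named after its values were seen. Bsg measured 620, 640 and 548 CPM in Ctrl and 456, 458 and 406 CPM in DTR (log2 fold change -0.45, SE 0.10, edgeR adjusted p = 0.602, DESeq2 adjusted p = 0.0819). Pcsk6, a furin-like convertase, was highest in the list at 1.79 (SE 0.73, edgeR adjusted p = 0.604) and rested on DTR 3, without which it was 0.46.

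Of 23 cytokines, receptors and transcription factors that act on MMP genes, all were tested and 0 were called by edgeR or DESeq2, with a median log2 fold change of 0.09. For 3 of them the groups did not overlap, each lower in DTR, where 8.18% of all genes tested did not overlap with DTR lower and 14.5% in either direction. Tnf, the inflammatory cytokine, measured 1.27, 2.14 and 1.69 CPM in Ctrl and 0.989, 0.870 and 1.10 CPM in DTR (log2 fold change -0.78, SE 0.40, edgeR adjusted p = 0.651). Tgfb1, a regulator of matrix genes, and Ets1, a factor that binds ETS words, were the other two, named after their values were seen, at log2 fold changes of -0.30 and -0.16. Only Tgfb1 had an unadjusted p below 0.05. Osmr, the oncostatin M receptor, was the highest of the list at 0.41 (SE 0.38, edgeR adjusted p = 0.784).

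The tested genes whose log2 CPM most resembled those of 4 members over the 6 libraries were listed by Pearson's r, as a description in which the libraries share their depth and marker make-up. Nearest to Mmp9 were Cars (0.989), Gm15706 (0.986) and Ints7 (0.981). Nearest to Mmp13 were Gtpbp1 (0.990), Fam216a (0.990) and Otud1 (0.986). Mmp14 was followed most closely by Cdr2l (0.996), Angptl2 (0.991) and Lrfn3 (0.989). For Timp1 they were 4930555B11Rik (0.990), Hk2 (0.987) and Slc2a1 (0.980). The rule for named genes limited this to 4 members, and among the other 6 members Mmp3 had a member, Mmp11, as its second nearest gene (0.976).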

How the data were processed

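RNA from FACS-sorted PDPN+PDGFRα+ cells of MO5 tumors was sequenced from 6 libraries (3 Ctrl, 3 DTR) made with a stranded total RNA kit for low input. The authors deposited raw counts per gene. Per the submitters' processing notes and the methods of the study, reads were trimmed with cutadapt 3.4, mapped to GRCm38 with STAR 2.7.3a and counted by strand with featureCounts 2.0.1. The deposited table also holds normalized counts and the authors' own DESeq2 comparison (fold changes, p-values), which were not used. Of 53801 genes, 27987 had no name in the table and 27841 of these were named from the reference gene name table; coordinates and exon lengths came from the GENCODE annotation of GRCm38, the same build.

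Counts were tested with edgeR 4.0.16 (R 4.3.3, TMM, filterByExpr with a minimum count of 10 and total of 15, quasi-likelihood, no covariate) over all 15133 genes that passed, with Benjamini-Hochberg adjustment at 0.05. DESeq2 1.42.0 was the alternative test. Exact two-sided permutation tests of the 6 libraries cannot give a p below 0.1. Both tests were first run on simulated counts. Those gave all genes the same dispersion, below the common dispersion of 0.0662 estimated for these libraries. They do not show how the tests act at the noise of these data. Intervals and the floor of 3 counts cover these libraries and counting error only. Alternatives were 2 other scalings, 2 filters, DESeq2, robust moderation, a replicate block, an offset on genomic span, each library left out in turn, counts without length, and 2 fibroblast marker scalings added after seeing the data.

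Genes named were the 10 members, the lowest and highest tested gene of each of the 3 other MMP-related lists, Adam12, Pdgfra, Pdpn and the 3 genes nearest to each of 4 members (log2 CPM, prior count 2). Marker genes of other cell types were named where their list is described. Bsg, Tgfb1, Ets1, Mmp1a and Mmp11 as a gene near Mmp3 were named after their values were seen. The members and lists were chosen with earlier results of these data known. Promoters came from the RefSeq table (GRCm38.p6), where 7 of the 10 members matched, and coding stretches from the GENCODE transcripts, placed on GRCm38 by the annotation.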

Additional observations from a re-analysis of the deposited data

How the results depend on the processing

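The number of genes called was 0 in edgeR and 31 by DESeq2, of which 0 and 2 were members. With 1 library left out, edgeR called from 0 to 2 genes (2 without Ctrl 1, neither of them a member). DESeq2 called 116, 22 and 22 genes without Ctrl 1, 2 and 3 and 199, 83 and 25 without DTR 1, 2 and 3, with 1 member without Ctrl 1 (Mmp13), 2 without Ctrl 2, 1 without DTR 2 (Mmp9) and 0 in the others. Mmp9 and Mmp13 were each called in 3 of 21 settings with an adjusted p, all of them DESeq2 fits, and their adjusted p reached 0.852 at most. In those fits the log2 fold changes were -1.96 (all libraries), -2.25 (without Ctrl 2) and -2.05 (without DTR 2) for Mmp9 and -3.06, -3.57 (without Ctrl 2) and -3.36 (without Ctrl 1) for Mmp13. Mmp9, Mmp13, Mmp2, Timp1, Timp2 and Timp3 kept their sign in all 22 settings. The log2 fold change of Mmp14 turned with an offset on genomic span (-0.023), with the fibroblast marker covariate (-0.079) and per 1000 marker counts (-0.43), where Mmp19 also turned (-0.10). With 1 library left out, edgeR values ran from -0.12 to 0.10 for Mmp14, from -0.013 to 0.66 for Mmp19, from -0.76 to 0.135 for Mmp3 and from -0.42 to 0.23 for Mmp11. DESeq2 gave turned values of -0.035 for Mmp14 and -0.0022 for Mmp19 without Ctrl 2, 0.15 for Mmp3 and 0.23 for Mmp11 without Ctrl 3, 0.026 for Mmp11 without DTR 2 and -0.12 for Mmp14 without DTR 3. The cause of these turns was not tested. By counts without length, the mean ratio of summed MMP to summed TIMP level was 2.17 in Ctrl and 1.68 in DTR, against 1.58 and 1.47 per kb, and the share of Timp3 was 5.79% and 10.1%, that of Timp1 4.21% and 2.51% and that of Mmp14 43.2% and 34.7% in Ctrl and DTR, since long transcripts weigh more on that scale. With 3 libraries a group and raw counts of 11 to 26 in DTR, Mmp13 was measured at low depth.

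Same-numbered Ctrl and DTR libraries came from different animals and their deviations correlated at 0.114, 0.132 and -0.042, so the numbers were not taken as pairs. With the replicate block 0 genes were called in edgeR, and the log2 fold changes were -1.84 for Mmp9, -2.59 for Mmp13, 1.16 for Timp3, 0.96 for Mmp2, -0.21 for Mmp3, -0.0060 for Mmp11, 0.0057 for Mmp14, 0.28 for Mmp19, -0.50 for Timp1 and 0.52 for Timp2.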
